A study of Mus musculus with 21 samples.

Results

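Sorted B220-positive bone marrow cells of mice labelled Blnk knockout and LAP transgenic were compared with the same cells of mice labelled LAP transgenic only, on 3 arrays against 3. B220 is a surface marker of the B lineage. The 6 arrays were chosen by their titles, out of 21 in the series, and were read on Affymetrix whole-genome mouse expression arrays with 1 array per sample. Both groups carry a Cebpb transgene for LAP, the form of the transcription factor C/EBPβ that activates its target genes, so the labels of the groups differ in Blnk alone. A further 3 arrays of knockout-labelled and 3 of wild-type marrow, neither with the transgene, give the Blnk difference outside LAP marrow and share no array with it. The promoter that drives LAP, the Blnk allele, the strain, age and sex of the mice and whether replicates are separate animals are not given in the sources used here. As a result, p-values measure only the spread between these arrays, which may be technical, and 3 arrays per group limit the precision of every value.

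BLNK is an adaptor protein that the kinase SYK phosphorylates below the pre-B cell receptor and the B cell receptor, and that gathers BTK and phospholipase C gamma into one complex. Through it the pre-B cell receptor, made of an immunoglobulin heavy chain and the surrogate light chain, stops proliferation and opens the light chain loci for recombination. Marrow B cells that lack BLNK are known to accumulate at the pre-B stage, and C/EBP factors are known to turn B-lineage cells towards myeloid gene expression.

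Levels are normalized log2 signals of 1 probe set per gene, which cannot be set against those of another gene, and changes are LAP knockout-labelled minus LAP transgenic marrow on the log2 scale, given ± SE of the limma fit over 12 marrow arrays. Adjusted p-values are limma's, by Benjamini-Hochberg over all 13370 genes tested, and called genes are those where it was under 0.05. In bulk samples, fewer cells of a type and less RNA per cell cannot be told apart.

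The Blnk probe set did not follow the label. Its level was 12.28, 12.22 and 12 on the LAP transgenic arrays and 12.04, 11.79 and 11.97 on the LAP knockout-labelled arrays, a change of -0.24 ± 0.11 (adjusted p = 0.144) with overlapping groups. With array weights the Blnk change was called lower (-0.33, adjusted p = 0.0159 in limma). Without LAP transgenic array 3 it was -0.32 (adjusted p = 0.0538 in limma). A probe set outside the deleted part of a gene checks nothing, and where this one lies relative to it is not given. Every Blnk comparison here therefore rests on the labels. The Cebpb probe set with the highest signal was at 10.16, 9.87 and 10.01 in LAP transgenic and 9.97, 9.86 and 9.81 in LAP knockout-labelled marrow, a change of -0.14 ± 0.16 (adjusted p = 0.578). Without the transgene its mean was 5.65 ± 0.10 (SD, n = 3) in wild-type and 5.23 ± 0.37 in knockout-labelled marrow, below every LAP array. A second Cebpb probe set, at 8.08, 7.59 and 9.43 against 7.72, 7.17 and 7.02, was not called either (-1.06 ± 0.39). It stood for Cebpb when LAP transgenic array 1 or 2 or any LAP knockout-labelled array was left out, with changes from -1.45 to -0.93. Among these fits only that without LAP transgenic array 2 called it lower (-1.45, adjusted p = 0.0154 in limma). LAP transgenic array 3 was the highest of the 6 arrays for this probe set.

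The array labelled LAP transgenic 3 stood apart. Its mean level over 17 neutrophil markers was 10.59, against 8.89 and 8.32 on arrays 1 and 2 of its group and 9.13 to 9.70 on the LAP knockout-labelled arrays. Over 15 monocyte and macrophage markers it was 9.12, against 8.26 and 7.97, and 7.95 to 8.08. Erythroid markers (10.39, against 8.46 to 9.15 on the other 5 arrays) and mast cell markers (7.13, against 5.71 to 6.21) were also highest on that array. The mean level of the 7 B-lineage markers measured was 10.75 to 11.09 in LAP transgenic and 10.37 to 10.57 in LAP knockout-labelled marrow. That mean takes in Ms4a1, which changed by -2.99, and Vpreb3, which was higher. The median deposited signal was 21.1 ± 0.252 (SD, n = 3) in LAP transgenic and 29.3 ± 1.87 in LAP knockout-labelled marrow, and the 3' to 5' ratio of the Gapdh control probe sets 0.967 ± 0.0874 and 0.857 ± 0.0603. The part of these differences in the results was not tested. Xist, expressed from the inactive X chromosome, was at 12.62 to 12.75 on all 6 arrays, and Kdm5d, on the Y chromosome, at 2.45 to 4.43, against a filter level of 4.2.

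**Figure D1:**
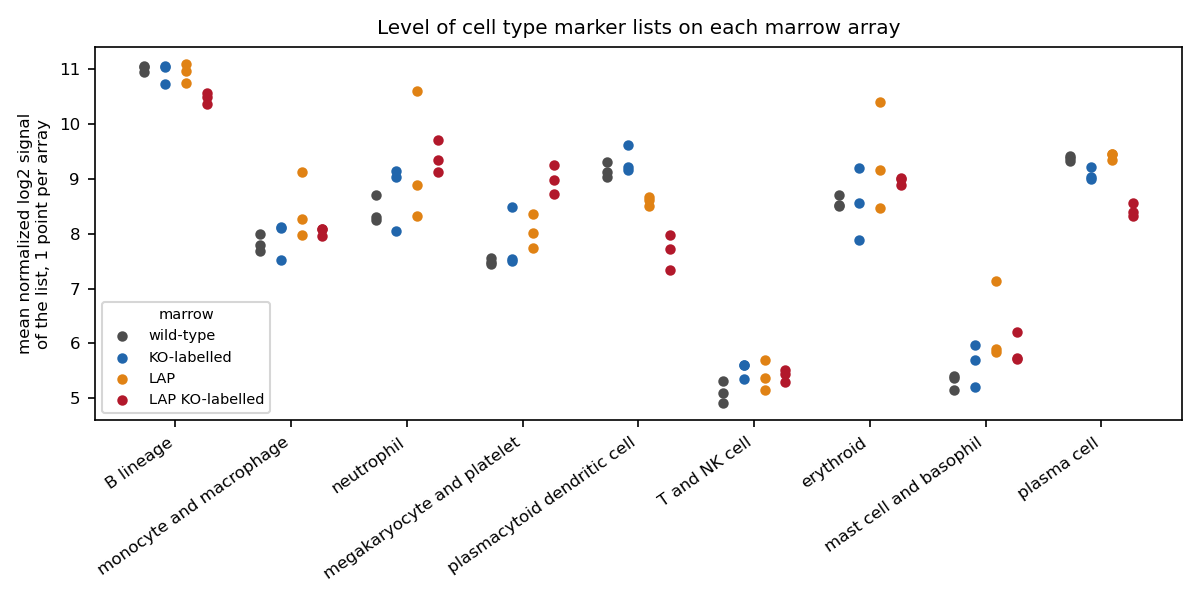
Mean normalized log2 signal (y axis) of each cell type marker list (x axis) on each of the 12 marrow arrays, 1 point per array, coloured by group. LAP transgenic array 3 lies above the others of its group for neutrophil (10.59), erythroid (10.39) and mast cell markers (7.13), and the LAP knockout-labelled arrays lie highest for megakaryocyte markers (8.72 to 9.25) and lowest for plasma cell markers (8.32 to 8.56). The plasma cell mean includes Jchain, which changed most of its list.

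LAP knockout-labelled marrow had lost much of the transcript of antigen presentation, of the surface receptors of mature B cells and of immunoglobulin light chains. It had gained surrogate light chain, early pre-B antigens and a set of genes led by channels, enzymes and the transcription factor Erg. Of the 13370 genes tested 3634 were called, or 27.2%. Of these 1939 were higher (14.5% of genes tested) and 1695 lower (12.7%) in LAP knockout-labelled marrow, and changes of at least 2-fold numbered 994, 538 up and 456 down. The groups did not overlap for 5225 genes, or 39.1%. At least 4-fold changes numbered 106 up and 128 down. Over all genes the median log2 change was 0.02. On the values as deposited, where the knockout-labelled arrays were brighter, the median was 0.40, and 5451 genes were called higher and 578 lower. The changes below are therefore relative to the bulk of genes.

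Antigen presentation by MHC class II fell throughout. In the list of class II chains and their loading machinery all 12 genes tested were called lower, beside 12.7% of all genes, and the groups of all 12 did not overlap, beside 39.1% of all genes. Their median change was -2.76, beside 0.02 over all genes. Without the transgene 11 of the 12 were lower in knockout-labelled than in wild-type marrow, with a median of -1.5. The class II beta chain gene H2-Eb1 was at 11.57, 11.44 and 11.88 in LAP transgenic and 7.85, 7.74 and 7.13 in LAP knockout-labelled marrow, a fall of 16.6-fold (-4.06 ± 0.17, adjusted p = 6.51e-09). H2-DMb2, a chain of the DM molecule that loads peptide, was at 10.32, 10.34 and 10.52 against 6.79, 5.97 and 6.29 (-4.04 ± 0.17, adjusted p = 6.51e-09). H2-Aa, a class II alpha chain, was at 12.62, 12.62 and 12.70 against 9.40, 9.39 and 9.22 (-3.31 ± 0.11, adjusted p = 5.75e-10). The lowest LAP transgenic array was above the highest LAP knockout-labelled array by several log2 units for each of the 3 genes.

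The invariant chain gene Cd74 changed by -3.50 ± 0.19, the beta chain H2-Ab1 by -3.02 ± 0.18 and the second E beta chain H2-Eb2 by -2.44 ± 0.18. Ciita, the coactivator that switches class II genes on, was at 7.24, 7.12 and 7.63 against 4.73, 4.21 and 4.44, a change of -2.87 ± 0.19 (adjusted p = 1.7e-07). The remaining falls were H2-DMa (-2.66 ± 0.16), the thiol reductase Ifi30 (-1.89 ± 0.12), the protease Ctss that trims the invariant chain (-0.80 ± 0.10), and H2-Oa (-1.39 ± 0.11) and H2-Ob (-0.77 ± 0.14), the chains of DO, which restrains DM. The members thus ran from a 16.6-fold fall of H2-Eb1 down to the small falls of H2-Ob and Ctss.

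Class II promoters are known for a shared upstream module that ends in the Y box, an inverted CCAAT element. RefSeq promoters of build GRCm38.p6, from 250 bases before to 50 after each start, were matched for 9 of the 12 genes, with 10 promoters. The letters TGATTGG, searched on both strands, were found in 6 of these 10 (60%), beside 9.42% of 13786 promoters of all matched genes, 10.3% of those called higher and 9.61% of those called lower. The 6 are shown from 150 bases upstream to the base before the start, with the Y box letters in capitals, to set the shared element beside falls that range from H2-Eb1 to H2-Ob:
H2-Eb1 (chr17:34305717-34305866, plus strand): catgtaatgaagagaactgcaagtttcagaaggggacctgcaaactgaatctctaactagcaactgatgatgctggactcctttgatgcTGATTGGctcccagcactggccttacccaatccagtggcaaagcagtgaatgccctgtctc
H2-DMb2 (chr17:34145099-34145248, plus strand): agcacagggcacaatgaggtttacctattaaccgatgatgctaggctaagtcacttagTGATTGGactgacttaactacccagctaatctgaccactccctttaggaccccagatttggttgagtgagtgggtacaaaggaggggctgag
H2-Aa (chr17:34287824-34287973, minus strand): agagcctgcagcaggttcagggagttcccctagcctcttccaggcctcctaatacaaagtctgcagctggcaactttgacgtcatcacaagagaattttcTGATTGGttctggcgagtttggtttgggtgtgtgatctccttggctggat
H2-Eb2 (chr17:34325525-34325674, plus strand): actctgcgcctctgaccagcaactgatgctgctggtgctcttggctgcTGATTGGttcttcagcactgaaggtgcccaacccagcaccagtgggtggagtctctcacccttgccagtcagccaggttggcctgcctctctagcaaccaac
H2-Oa (chr17:34092229-34092378, plus strand): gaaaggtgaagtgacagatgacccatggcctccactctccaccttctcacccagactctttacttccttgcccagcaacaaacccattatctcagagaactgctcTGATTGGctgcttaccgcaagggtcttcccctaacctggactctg
H2-Ob (chr17:34238755-34238904, plus strand): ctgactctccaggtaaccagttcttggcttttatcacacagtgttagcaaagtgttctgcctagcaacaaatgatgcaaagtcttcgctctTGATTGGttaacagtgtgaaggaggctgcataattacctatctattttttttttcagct
The first capital lay 61 bases before the start in H2-Eb1, 92 in H2-DMb2, 50 in H2-Aa, 102 in H2-Eb2, 45 in H2-Oa and 59 in H2-Ob. The 4 promoters without these letters belong to Ctss, Ifi30 and H2-DMa, which were lower as well, and H2-Ob, with them, fell least of the 12. Across the calls as a whole the motif shares were flat: the C/EBP letters TTGCNNAA was in 8.71% of promoters of genes called higher, 9.27% of those called lower and 8.86% of all, and the Ets core GAGGAA in 27%, 27.9% and 27.1%. All 3 motifs were searched on both strands, a C/EBP match can overlap a Y box match, and a match describes the sequence only.

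**Figure D2:**
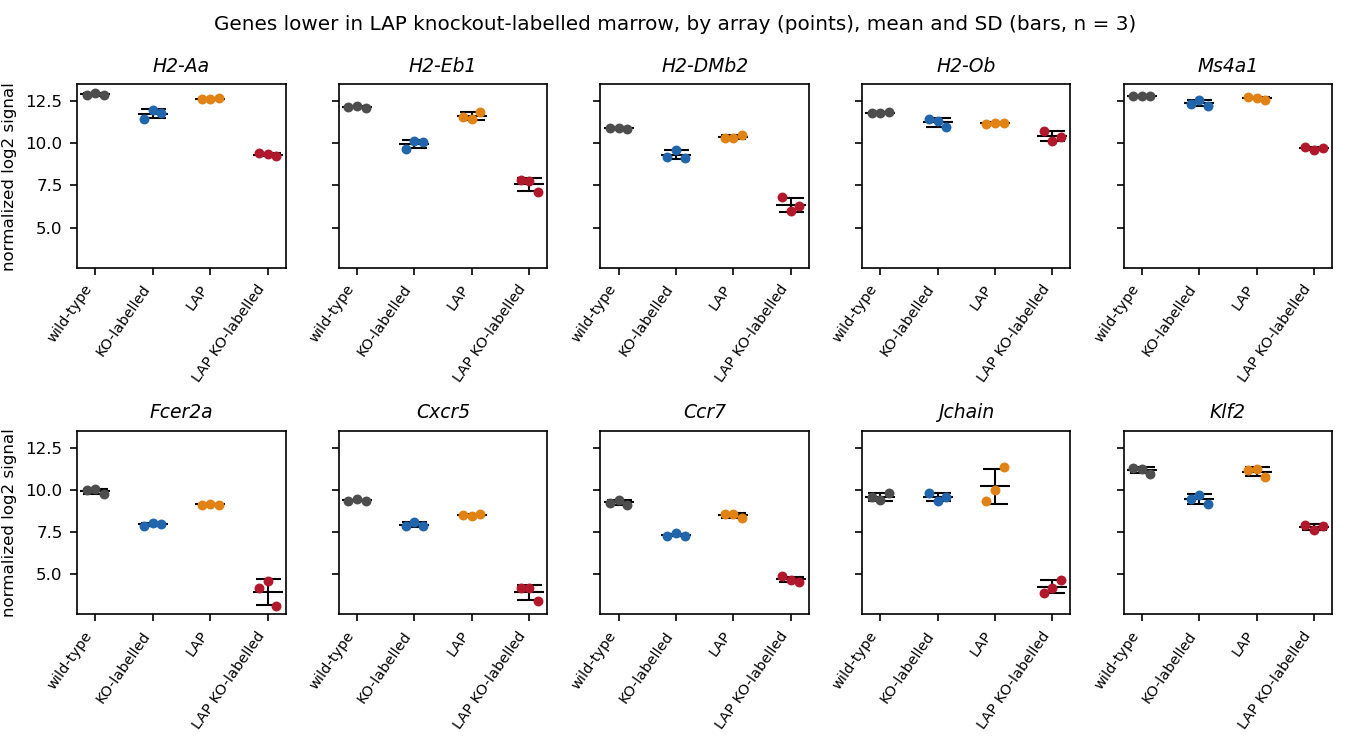
Normalized log2 signal (y axis) of 10 genes in wild-type, knockout-labelled, LAP transgenic and LAP knockout-labelled marrow, 1 point per array, with bars for the mean and SD of 3 arrays. The LAP knockout-labelled arrays are the lowest of the 12 for all 10 genes, for example 3.11 to 4.61 for Fcer2a, and Jchain is as high in knockout-labelled (9.60 ± 0.24) as in wild-type marrow (9.58 ± 0.23).

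Surface receptors of mature B cells fell nearly as widely. Of 19 genes tested 17 were called lower, beside 12.7% of all genes, and 0 higher, with a median change of -2.05. As deposited, and with the 6 arrays fitted alone, 1 was higher. Fcer2a, the IgE receptor CD23, was at 9.12, 9.15 and 9.12 against 4.16, 4.61 and 3.11 (-5.17 ± 0.27, adjusted p = 2.61e-08). Btla, an inhibitory receptor, was at 12.04, 11.64 and 12.19 against 7.35, 7.35 and 7.69 (-4.50 ± 0.18, adjusted p = 3.81e-09). Fcmr, the receptor for IgM, was at 11.72, 11.53 and 11.58 against 7.31, 6.98 and 7.12 (-4.47 ± 0.14, adjusted p = 3.79e-10). These 3 are among the 15 largest falls, a set limited to genes whose groups do not overlap, and the lower group of Fcer2a was under the filter level, where a fold depends on the pseudocount.

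Ms4a1, the antigen CD20, was at 12.77, 12.71 and 12.60 against 9.81, 9.59 and 9.70 (-2.99 ± 0.09, adjusted p = 3.01e-10). Other large falls were Cd83 (-3.57 ± 0.12), the complement regulator Cd55 (-3.27 ± 0.17), the T-cell help receptor Cd40 (-3.00 ± 0.22), Fcrl1 (-2.41 ± 0.14) and the complement receptor Cr2 (-2.35 ± 0.18). The BAFF receptor gene Tnfrsf13c (-1.33 ± 0.15), Cd72 (-1.42 ± 0.13), the costimulator Cd86 (-1.27), its relative Icosl (-1.30), the inhibitory receptors Fcgr2b (-1.08) and Siglecg (-1.04) and the second BAFF-binding receptor Tnfrsf13b (-0.69) changed less. Cd37, a tetraspanin, was at -0.49 (adjusted p = 0.0810) and Cd69, an activation marker, at 0.30 (adjusted p = 0.425), and neither passed the test.

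Genes for homing to follicles and lymph nodes followed the same direction, with 8 of 11 called lower, beside 12.7% of all genes, 0 higher (1 as deposited) and a median of -1.87. Cxcr5, the follicle-homing receptor, was at 8.53, 8.46 and 8.58 against 4.15, 4.20 and 3.40 (-4.61 ± 0.18, adjusted p = 2.47e-09), and its lower group was under the filter level. Ccr7, for entry into lymph nodes, was at 8.58, 8.55 and 8.33 against 4.86, 4.62 and 4.55 (-3.81 ± 0.12, adjusted p = 4.06e-10). Klf2, a transcription factor of lymphocyte trafficking, was at 11.18, 11.26 and 10.77 against 7.89, 7.59 and 7.87 (-3.29 ± 0.16, adjusted p = 1.62e-08). The groups did not overlap for 8 of the 11 genes, beside 39.1% of all genes. These 3 are among the 8. The naming rule required this of Cxcr5 and Ccr7, and Klf2 was picked for a small adjusted p, which favours such groups.

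The oxysterol receptor Gpr183 (-3.28 ± 0.21), the chemokine receptor Ccr6 (-2.82 ± 0.31), the integrin chain Itgb7 (-1.87 ± 0.17) and the egress receptor S1pr1 (-1.24 ± 0.21) were also lower. Cxcr4, which holds cells in the marrow, changed by -0.63 ± 0.09 and was no longer called on the values as deposited. The last members, S1pr4 at -0.21 (adjusted p = 0.107), Cxcr3 at -0.39 (adjusted p = 0.341) and the integrin chain Itga4 at 0.03 (adjusted p = 0.909), did not pass the test.

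Transcripts of immunoglobulin light chains and of the IgA heavy chain were much lower. Probe sets for immunoglobulin genes can share near-identical targets, so each was read on its own, in a fit of every probe set in which 10.3% of 24708 were called lower. Of 31 such probe sets 23 were called lower and 0 higher, with a median of -2.42. All 3 lambda probe sets were lower (-7.40, -5.95 and -4.83), as were 13 of 14 kappa probe sets (median -2.54). The brightest kappa one, Igkv8-30, was at 11.74, 12.63 and 12.18 against 8.16, 7.29 and 7.80 (-4.43 ± 0.26, adjusted p = 8.27e-08 in the fit of genes).

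Heavy chain probe sets split by class. The 3 Igha probe sets, for the IgA heavy chain, changed by -8.81, -8.58 and -7.08. The second of them was at 11.93, 12.17 and 12.96 in LAP transgenic and 3.14, 3.13 and 5.06 in LAP knockout-labelled marrow, so 2 of the latter arrays were under the filter level. By contrast the brightest Ighm probe sets, for the IgM heavy chain, were at 12.82 to 13.16 against 12.33 to 12.94, with changes of -0.46 ± 0.11 and -0.32 ± 0.09. Ighv14-2, a heavy chain variable segment, changed by -2.43.

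Jchain, which joins secreted IgA and IgM into polymers, was at 9.33, 9.97 and 11.36 against 3.90, 4.20 and 4.64 (-5.97 ± 0.38, adjusted p = 1.37e-07), the largest fall among the genes named outside the immunoglobulin segments. Of the 9 plasma cell markers tested, Jchain among them, 5 were lower, beside 12.7% of all genes, and 2 higher, beside 14.5%. Sdc1, or CD138, changed by -2.09 ± 0.26 and Prdm1, which drives plasma cell formation, by -1.42 ± 0.18, while the chaperone gene Mzb1 (0.97 ± 0.08) and Slamf7 (1.29 ± 0.13) were higher. The mean level of the 9 markers was 9.35 to 9.45 in LAP transgenic and 8.32 to 8.56 in LAP knockout-labelled marrow. That mean includes Jchain, whose change was by far the largest of the 9. The part of plasma cells in the immunoglobulin result was not tested.

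Early pre-B genes moved the other way. In the list of surrogate light chain and early pre-B antigens 10 of 17 genes were called higher, beside 14.5% of all genes, and 4 lower, with a median of 0.51. Igll1, the lambda-5 part of the surrogate light chain, was at 10.74, 10.83 and 10.15 in LAP transgenic and 13.14, 13.02 and 13 in LAP knockout-labelled marrow, a rise of 5.59-fold (2.48 ± 0.15, adjusted p = 1.11e-07). Its partner Vpreb1 was at 11.77, 11.79 and 11.37 against 13.02, 12.95 and 13.04 (1.36 ± 0.11, adjusted p = 1.42e-06). Enpep, the surface peptidase BP-1, was at 8.41, 8.44 and 8.19 against 10.54, 11.26 and 11.47 (2.74 ± 0.19, adjusted p = 3.1e-07). Every LAP knockout-labelled array exceeded every LAP transgenic array for these 3 genes, which were picked for a small adjusted p. The groups did not overlap, in either direction, for 14 of the 17, beside 39.1% of all genes. The other Igll1 probe set was not called.

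Dntt, the polymerase that adds bases at heavy chain joins, was at 9.03, 8.67 and 7.79 against 11.53, 11.51 and 11.40 (2.99 ± 0.24, adjusted p = 1.22e-06). Other rises were Bst1 (1.28 ± 0.12), the sialoglycoprotein Spn, or CD43 (1.12 ± 0.11), the early B antigen Cd93 (0.89 ± 0.13), the recombinase subunit gene Rag2 (0.89 ± 0.16), the chromatin remodeller Smarca4 (0.51 ± 0.11) and Vpreb3 (0.28 ± 0.09). Vpreb3 lost its call under 9 of the 16 alternatives tried. Rag1, the other recombinase subunit (-0.21, adjusted p = 0.388), the interleukin 7 receptor Il7r (-0.06, adjusted p = 0.743, but 0.30 and called on the values as deposited) and the stem cell factor receptor Kit (-0.45, adjusted p = 0.279) did not pass the test.

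The 4 members that fell ran against most of the list. Brwd1, a chromatin reader used in kappa recombination, was at 8.71, 8.54 and 8.58 against 4.46, 4.70 and 4.62 (-4.02 ± 0.12, adjusted p = 3.01e-10). Il2ra, or CD25, which appears on small pre-B cells, changed by -3.03 ± 0.27, the progenitor receptor Flt3 by -1.61 ± 0.41 and Cd24a by -0.31 ± 0.06.

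**Figure D3:**
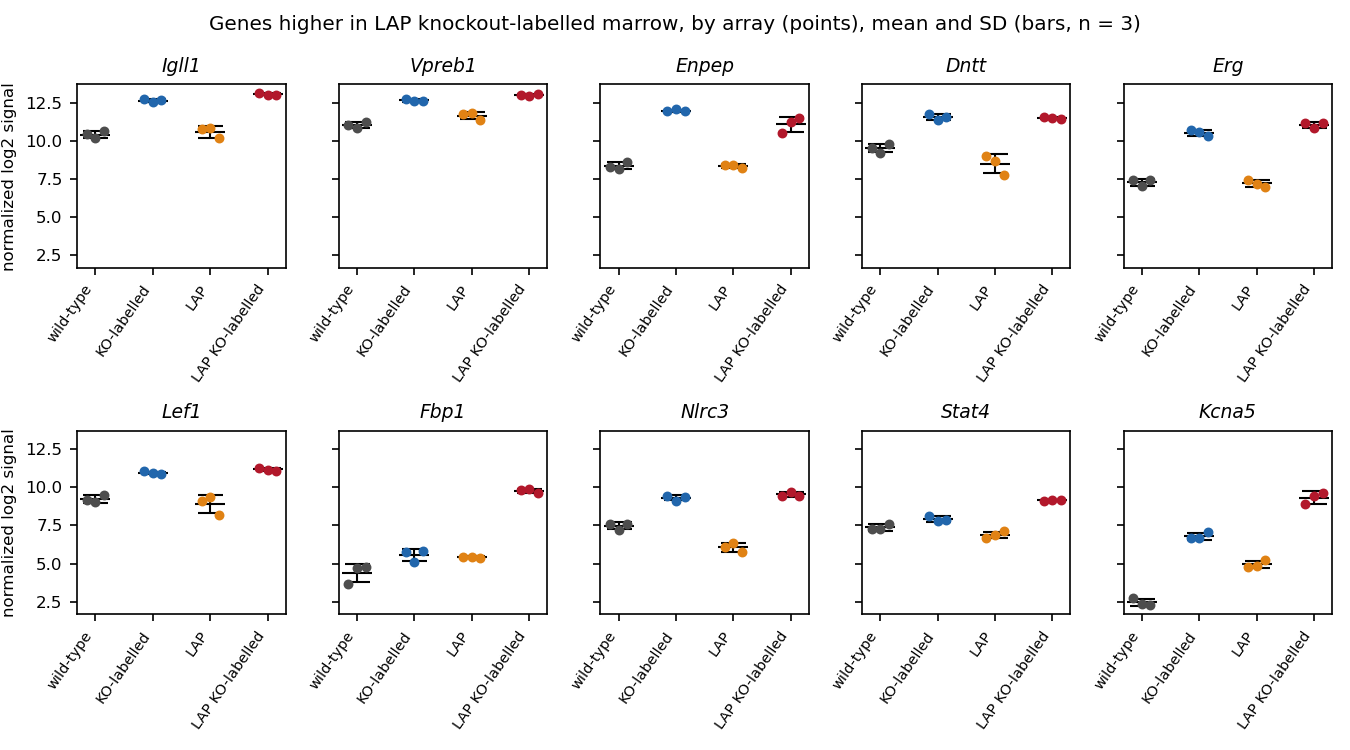
Normalized log2 signal (y axis) of 10 genes in wild-type, knockout-labelled, LAP transgenic and LAP knockout-labelled marrow, 1 point per array, with bars for the mean and SD of 3 arrays. Igll1 lies at 13 to 13.14 in LAP knockout-labelled against 10.15 to 10.83 in LAP transgenic marrow, and Fbp1 is above 9 only in LAP knockout-labelled marrow.

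Transcription factors of the B lineage split, with 7 of 25 called higher, beside 14.5% of all genes, and 10 lower, beside 12.7%, and a median of -0.25. As deposited 6 rather than 10 were lower. Erg, a factor of early progenitors, was at 7.46, 7.16 and 7 against 11.15, 10.82 and 11.19, a rise of 14.4-fold (3.85 ± 0.15, adjusted p = 3.81e-09). Lef1, a Wnt pathway factor of pro-B cells, was at 9.09, 9.37 and 8.21 against 11.25, 11.16 and 11.09 (2.28 ± 0.22, adjusted p = 6.77e-06). Ikzf3, or Aiolos, which acts with Ikaros beyond the pre-B stage, was at 9.69, 9.55 and 9.44 against 7.03, 6.81 and 6.69 (-2.72 ± 0.14, adjusted p = 2.13e-08). Spib changed by -1.44 ± 0.13 and Bach2 by -0.89 ± 0.10. The groups did not overlap for 18 of the 25 factors, beside 39.1% of all genes. These 5 are among the 18, and were picked for the smallest adjusted p, which favours such groups.

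Signalling genes below the pre-B and B cell receptors were lower in 14 of 28 cases, beside 12.7% of all genes, and higher in 3, beside 14.5%, with a median of -0.26. Rasgrp1, a Ras activator, was at 9.80, 9.87 and 9.48 against 5.15, 5.37 and 5.21, a fall of 22.3-fold (-4.48 ± 0.12, adjusted p = 3.01e-10). Its relative Rasgrp3 was at 8.76, 8.67 and 8.69 against 6.61, 6.22 and 6.17 (-2.38 ± 0.13, adjusted p = 3.5e-08). The adaptor Lat2 (-3.03 ± 0.20), the Src-family kinase Blk (-2.63 ± 0.20) and the inhibitory receptor Cd22 (-2.05 ± 0.11) were lower too. The 2 other Lat2 probe sets were not called. Among the direct partners of BLNK, named for that role outside the rule for named genes, Syk changed by -1.09 ± 0.13 (adjusted p = 3.38e-05), Btk by -0.33 ± 0.09 (adjusted p = 0.0193) and Plcg2 by 0.13 ± 0.09 (adjusted p = 0.350). Btk was at 0.08 on the values as deposited and lost its call without LAP transgenic array 1 or LAP knockout-labelled arrays 2 or 3. The 3 members called higher became 9 on the values as deposited and 5 without LAP transgenic array 3 or with array weights.

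Immediate early and activation genes were lower in 13 of 24 cases, beside 12.7% of all genes, and higher in 2 (5 as deposited), beside 14.5%, with a median of -1.04. Egr3, a factor induced by receptor signals, was at 8.92, 9.17 and 8.53 against 4.40, 4.22 and 4.10 (-4.64 ± 0.22, adjusted p = 1.19e-08). Its other probe set was not called. The NF-kB inhibitors Nfkbid (-1.94 ± 0.16) and Nfkbia (-1.21 ± 0.10) and the ERK phosphatase Dusp5 (-1.86 ± 0.25) fell. The ERK phosphatase Dusp6 was at 10.46, 10.45 and 10.33 against 11.54, 11.52 and 11.51, a rise of 1.12 ± 0.15 (adjusted p = 8.4e-05), and so ran against most of its list. The groups did not overlap for 19 of the 24 genes, beside 39.1% of all genes. These 5 are among the 19, and were picked for the smallest adjusted p, which favours such groups.

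Growth and survival genes changed little by comparison. Of 32 cell cycle genes 8 were higher, beside 14.5% of all genes, and 2 lower, beside 12.7%, with a median of 0.28. The count of higher genes was 3 after median centring, 23 as deposited, 3 without LAP transgenic array 1 and 2 without LAP knockout-labelled array 2. Ccnd2, or cyclin D2, was at 9.50, 9.34 and 9.74 against 7.70, 7.63 and 7.90 (-1.79 ± 0.14, adjusted p = 8.47e-07), and Cdkn1a, the cell cycle inhibitor p21, changed by 1.15 ± 0.20 (adjusted p = 0.000771). Cdt1, which licenses replication, was lower (-0.64 ± 0.11), and the mitotic motor Kif11 (0.67 ± 0.17) and the helicase subunit Mcm5 (0.38 ± 0.10) were higher. Mcm5 lost its call after median centring and without LAP knockout-labelled array 2.

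MYC-responsive ribosome biogenesis genes were higher in 8 of 16 cases, beside 14.5% of all genes, and lower in 0, with a median of 0.27. The 8 became 4 after median centring and 15 as deposited. The members with the smallest adjusted p were Wdr43 (0.67 ± 0.12), Ncl (0.30 ± 0.06), Cad (0.58 ± 0.12), Srm (0.48 ± 0.10) and Nop58 (0.68 ± 0.15), among which Wdr43, Ncl and Nop58 are nucleolar proteins. Ncl was not called after median centring. In the interleukin 7 receptor list 5 of 15 genes were lower, beside 12.7% of all genes, and 1 higher, beside 14.5%, among them the survival kinase Pim2 (-1.36 ± 0.14), the feedback inhibitor Socs1 (-2.72 ± 0.35) and, against them, the feedback inhibitor Socs2 (1.07 ± 0.20). The 1 higher became 6 on the values as deposited, 3 without LAP transgenic array 3 and 2 with array weights. Socs1 was at 5.84, 5.93 and 6.08 against 3.13, 4.06 and 2.51, so its lower group was under the filter level. Of 13 BCL2 family genes 4 were lower, beside 12.7% of all genes, and 2 higher, beside 14.5%. As deposited 2 were lower and 4 higher, and 1 was higher without LAP transgenic array 3, without LAP knockout-labelled array 3 or with the 6 arrays fitted alone. The lower ones were Bcl2 (-1.04 ± 0.16) and Mcl1 (-0.69 ± 0.09), which protect from cell death, and the death-promoting Bcl2l11 (-0.65 ± 0.17) and Pmaip1 (-0.61 ± 0.13). Bcl2l11 lost its call under 3 of the 16 alternatives tried, and its 4 other probe sets were not called. Another protector, Bcl2l2, was higher (1.31 ± 0.14), as was the death-promoting Bad (0.42 ± 0.12), named after its value was seen.

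Metabolic genes had 1 large change. Fbp1, the gluconeogenic enzyme fructose bisphosphatase, was at 5.44, 5.46 and 5.37 in LAP transgenic and 9.80, 9.88 and 9.62 in LAP knockout-labelled marrow, a rise of 20.3-fold (4.35 ± 0.27, adjusted p = 9.57e-08). In its list of 14 glycolysis and gluconeogenesis genes 6 were higher, beside 14.5% of all genes, and 1 lower (0 as deposited and with the 6 arrays fitted alone), beside 12.7%, with a median of 0.28. Pck2, an enzyme that makes phosphoenolpyruvate in mitochondria, was higher by 1.21 ± 0.12, the glycolytic enzymes Pkm (0.40 ± 0.10) and Pgam1 (0.38 ± 0.10) by less, and the glucose transporter Slc2a1 was lower (-0.53 ± 0.13). Fbp1 thus stood far outside the spread of the rest of its list.

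C/EBP genes themselves were not called. The 5 tested all had negative values, and 0 passed the test (1, Cebpb, without LAP transgenic array 2): Cebpa was at -0.45 (adjusted p = 0.548), Cebpd at -0.27 (adjusted p = 0.654), Ddit3 at -0.27 (adjusted p = 0.102) and Cebpg at -0.11 (adjusted p = 0.420), beside Cebpb above. At an unadjusted p under 0.05 in limma 1 of the 5 passed. Of 20 macrophage-type genes reported under C/EBP in B cells 3 were higher, beside 14.5% of all genes, and 3 lower, beside 12.7%. F13a1, a coagulation factor subunit, was at 9.11, 9.23 and 10.22 against 11.60, 11.51 and 11.19 (1.91 ± 0.23, adjusted p = 4.77e-05), and the chemokine Ccl9 was at 7.76, 7.74 and 8.44 against 9.77, 9.01 and 9.51 (1.45 ± 0.26, adjusted p = 0.00106). Lgals3, or galectin-3 (-1.47 ± 0.27), and the membrane-binding protein Anxa2 (-1.39 ± 0.27) were lower, and the receptor Csf1r was at -0.24 (adjusted p = 0.537). The monocyte and macrophage markers moved on LAP transgenic array 3 as given above.

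Markers of other cells were mostly not called, as were most genes tested. Over all genes 27.2% were called, 14.5% higher and 12.7% lower. Of 17 neutrophil markers 0 were called, 0 at an unadjusted p under 0.05 in limma. Once LAP transgenic array 3 was left out 5 were higher, beside 1909 of all genes in that fit. Of 15 monocyte and macrophage markers 1 was lower, the membrane protein gene Ms4a6c (-3.21 ± 0.23), which lost its call without LAP transgenic array 2 because another of its probe sets then represented it. Mast cell and basophil markers had 0 of 4 called, with 0 at an unadjusted p under 0.05 in limma, erythroid markers 1 of 8 lower, the transferrin receptor Tfrc (-0.87 ± 0.11), and interferon response genes 2 higher (5 as deposited) and 3 lower (5 without LAP transgenic array 2) of 17. In the T and NK cell list 2 of 13 genes were higher and 1 lower. Beside 14.5% higher and 12.7% lower of all genes, the counts of the erythroid, interferon and T and NK lists are not far from that background. The 2 T and NK genes became 4 as deposited, and 1 without LAP transgenic array 1 or 2 or LAP knockout-labelled array 2 or 3, and the 1 lower became 2 without LAP transgenic array 2. Thy1 was at 5.36, 5.42 and 6.15 against 8.17, 8.37 and 8.40 (2.67 ± 0.28, adjusted p = 1.1e-05), while Cd3d, part of the T-cell receptor complex, was lower (-1.18 ± 0.29), and the list's mean level overlapped between groups at 5.16 to 5.70 and 5.30 to 5.52.

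Megakaryocyte and platelet markers did rise, 8 of 10, beside 14.5% of all genes, with 0 lower and a median of 0.89. Gp1bb, a platelet adhesion receptor subunit, was at 7.42, 7.21 and 7.77 against 9.25, 8.92 and 8.46 (1.41 ± 0.30, adjusted p = 0.00360), and the platelet chemokine Ppbp at 10.97, 10.61 and 11.42 against 12.35, 12.01 and 11.91 (1.09 ± 0.24, adjusted p = 0.00463). Vwf, or von Willebrand factor, changed by 1.27 ± 0.28, the integrin chain Itga2b by 0.82 ± 0.22 and Treml1 by 0.70 ± 0.19. The count fell to 4 without LAP transgenic array 1 or array 2, 3 without LAP knockout-labelled array 1 and 5 without its array 2. Their mean level was 7.74 to 8.36 in LAP transgenic and 8.72 to 9.25 in LAP knockout-labelled marrow.

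Plasmacytoid dendritic cell markers, a type that also carries B220, were lower in 6 of 9 cases, beside 12.7% of all genes, and higher in 1, beside 14.5%, with a median of -0.60. Ly6d, which B cells express too, was at 12.27, 12.01 and 11.94 against 8.87, 8.58 and 8.26 (-3.50 ± 0.17, adjusted p = 1.62e-08). Cox6a2, a mitochondrial subunit, changed by -1.30 ± 0.14, Irf8, an interferon regulatory factor shared with B cells, by -0.60 ± 0.10, and Tcf4 rose by 0.38 ± 0.09. The 6 became 2 as deposited and 3 without LAP knockout-labelled array 1 or when the 6 arrays were fitted alone. The list's mean level, Ly6d included, was 8.51 to 8.66 in LAP transgenic and 7.33 to 7.97 in LAP knockout-labelled marrow.

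**Figure D4:**
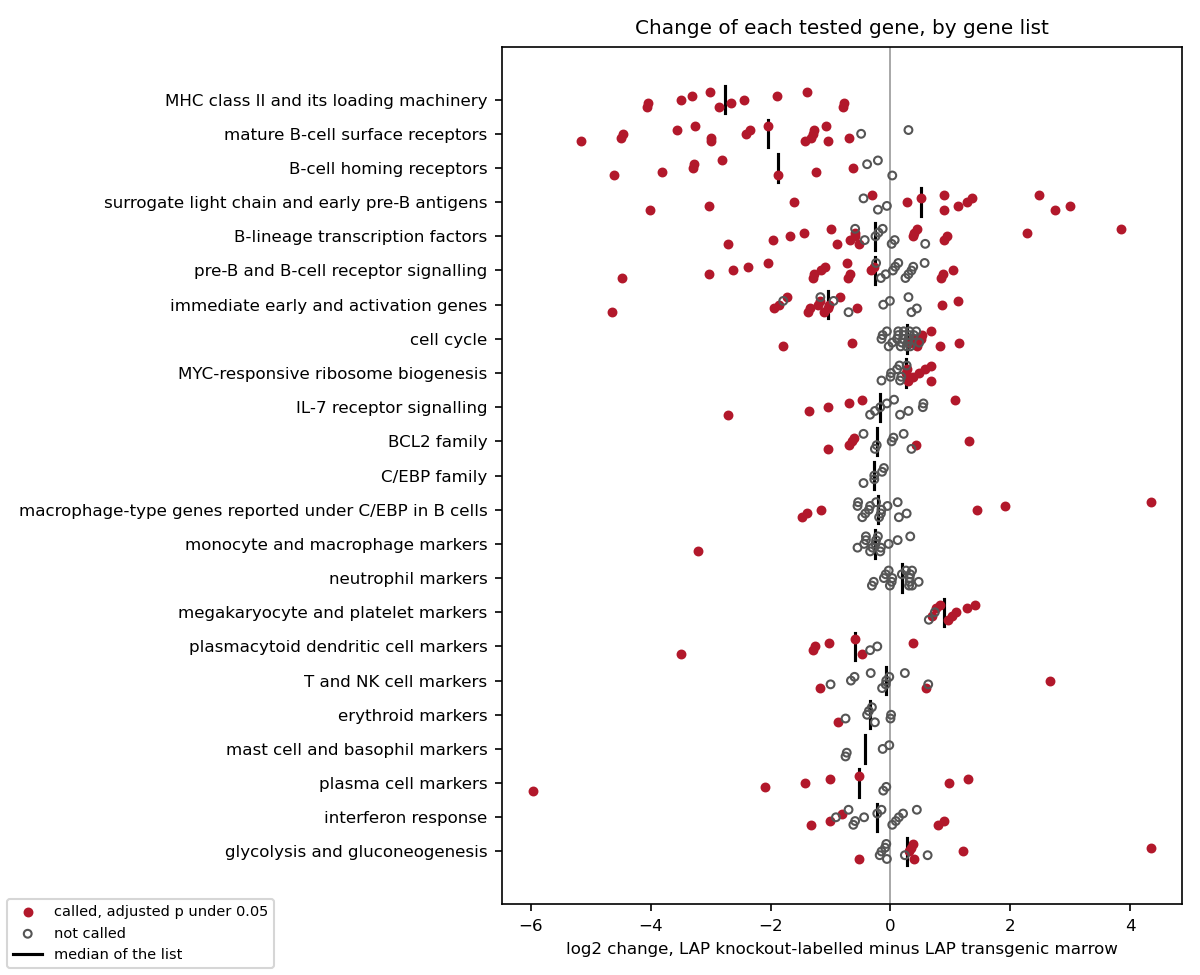
Log2 change, LAP knockout-labelled minus LAP transgenic marrow (x axis), of every gene tested in the gene lists named (y axis), with called genes filled, genes not called open and the list's median as a black tick. The medians lie at -2.76 for MHC class II, -2.05 for mature B-cell surface receptors and -1.87 for B-cell homing receptors, and between -1.04 and 0.89 for the other lists drawn.

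Beyond these lists, the 15 largest rises held several genes of no shared family. Scn4b, a sodium channel subunit, was at 4.52, 4.46 and 2.66 against 8.24, 8.29 and 8.68 (4.53 ± 0.39, adjusted p = 2.22e-06), and Kcna5, a potassium channel, at 4.81, 4.82 and 5.22 against 8.88, 9.46 and 9.65 (4.38 ± 0.22, adjusted p = 2.13e-08). Nlrc3, a member of the NOD-like receptor family, was at 6.06, 6.38 and 5.79 against 9.43, 9.70 and 9.46, a rise of 10.9-fold (3.45 ± 0.16, adjusted p = 1.19e-08). Their groups did not overlap, which the rule for this set required. Tmem255a (4.16 ± 0.20), the secreted factor Serpinf1 (3.25 ± 0.18), Pcp4l1 (3.24 ± 0.18), the Wnt inhibitor Nkd2 (3.22 ± 0.58), the protease Bace1 (3.21 ± 0.24), the filament protein Bfsp2 (3.08 ± 0.19), the branched-chain aminotransferase Bcat1 (2.99 ± 0.20), the guidance receptor Robo3 (2.98 ± 0.44) and the protocadherin Pcdh9 (2.94 ± 0.30) completed the set with Fbp1, Erg and Dntt. For Scn4b, Nkd2 and Robo3 the lower group was under the filter level.

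Among the 15 largest falls, those outside the lists were Reln, P2ry10 and Tlr1. Reln, the secreted protein reelin, was at 11.10, 11.04 and 10.67 against 6.22, 5.98 and 6.40 (-4.74 ± 0.22, adjusted p = 1.04e-08). P2ry10, a lysophospholipid receptor, was at 9.15, 9.13 and 9.18 against 4.78, 5.61 and 5.97 (-3.70 ± 0.24, adjusted p = 1.37e-07). Tlr1, a receptor for bacterial lipopeptide, was at 9.24, 9.38 and 9.54 against 6.06, 5.57 and 5.77 (-3.59 ± 0.15, adjusted p = 4.33e-09). Non-overlapping groups were a condition of this set.

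The Blnk change in LAP marrow was then set against that in marrow without the transgene. Knockout-labelled against wild-type marrow called 2290 genes (17.1%), 1120 higher (8.38%) and 1170 lower (8.75%), with a median change of 0.01. Of genes higher in LAP knockout-labelled marrow 841 were also higher there, which is 43.4% of the LAP list and 75.1% of the other. Of lower genes 825 were shared, or 48.7% and 70.5%. Opposite calls numbered 7 higher and 15 lower in LAP marrow. By list, 15 of 19 mature B-cell receptors (median -0.92) and 8 of 11 homing receptors (-0.91) were lower without the transgene. So were 11 of 12 MHC class II genes (-1.5), beside 8.75% of all genes. Of 17 early pre-B genes 9 were higher there, beside 8.38%, and 2 lower. Igll1 changed by 2.23 and Vpreb1 by 1.60 in marrow without the transgene, and Kcna5 by 4.33, beside 2.48, 1.36 and 4.38 in LAP marrow, and none of the 3 differences was called.

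The difference between the 2 Blnk changes, tested as an interaction over 12 arrays, was called for 235 genes (1.76%), 68 positive and 167 negative. Of the negative ones 156 were lower in LAP marrow, and 91 of these were lower in both settings, while 50 were not called without the transgene. Of the positive ones 61 were higher in LAP marrow, 23 of them in both settings and 32 with no call without the transgene. The count ran from 138 without wild-type array 3 to 378 without knockout-labelled array 3, was 141 without wild-type array 1, 140 without knockout-labelled array 2 and 150 without LAP knockout-labelled array 3, and rose to 621 with array weights.

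Of the 8 genes named for the largest negative differences, Fcer2a and Ms4a1 are in the mature B-cell receptor list, Cxcr5 in the homing list, Jchain in the plasma cell list and Ly6d in the plasmacytoid dendritic cell list, while Crhbp, Ccr1 and Ltb are in none. Jchain changed by -5.97 in LAP marrow and 0.01 without the transgene, at 9.58 ± 0.23 (SD, n = 3) in wild-type and 9.60 ± 0.24 in knockout-labelled marrow, and the difference was -5.98 ± 0.54 (adjusted p = 0.000103). Igha, which the rule leaves out as a segment gene and which is given for its size, changed by -8.58 in LAP marrow and 0.90 without the transgene. In the fit of every probe set 1 of the 3 Igha probe sets was called in opposite directions. It changed by -7.08 in LAP marrow and by 1.12 without the transgene (adjusted p = 0.0136 in limma). The others, at 1.05 and 0.90 without the transgene, were not called there. Ms4a1 changed by -2.99 against -0.45, a difference of -2.54 ± 0.12 (adjusted p = 4.67e-07). Fcer2a (-5.17 against -1.95, difference -3.22 ± 0.38) and Cxcr5 (-4.61 against -1.43, difference -3.18 ± 0.25) were called lower in both settings.

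The lymphotoxin beta gene Ltb was at 11.89, 11.67 and 11.67 in LAP transgenic and 9.06, 7.92 and 8.37 in LAP knockout-labelled marrow, a change of -3.29, against -0.45 without the transgene (difference -2.84 ± 0.33, adjusted p = 0.000788). Ly6d changed by -3.50 against -0.96 (difference -2.55 ± 0.24). The chemokine receptor Ccr1 was at 7.37, 6.98 and 7.96 against 4.32, 3.80 and 3.61, with the lower group's mean under the filter level. Its difference of -2.94 ± 0.56 (adjusted p = 0.0173) lost its call without any of 4 arrays, wild-type 1 or 3 or LAP knockout-labelled 2 or 3. Crhbp, a hormone-binding protein, differed in kind, since it was higher in both settings, by 2.10 in LAP marrow and 5.05 without the transgene (difference -2.94 ± 0.49, adjusted p = 0.00697).

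Positive differences were led by Fbp1, whose change of 4.35 stood against 1.18 without the transgene, a difference of 3.16 ± 0.37 (adjusted p = 0.000798). Stat4, a transcription factor below interleukin 12, was at 6.71, 6.89 and 7.11 in LAP transgenic and 9.12, 9.14 and 9.18 in LAP knockout-labelled marrow, a change of 2.24 against 0.56 (difference 1.68 ± 0.19, adjusted p = 0.000719). Cav2, or caveolin-2, was at 7.15, 7.32 and 7.03 against 8.87, 8.79 and 8.98, a change of 1.72 against 0.14 (difference 1.58 ± 0.14, adjusted p = 0.000103). Non-overlapping groups in LAP marrow were a condition of being named here.

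Abi2, an actin regulator (2.48 against 0.67, difference 1.82 ± 0.23), and Nlrc3 (3.45 against 1.85, difference 1.61 ± 0.23) kept their call under every alternative. Nlrc3 had similar means in knockout-labelled (9.32) and LAP knockout-labelled marrow (9.53). Its mean was lower in LAP transgenic (6.08) than in wild-type marrow (7.48). The protease gene Bace1 (difference 1.58 ± 0.34, adjusted p = 0.0348), Ccl9 (1.70 ± 0.37, adjusted p = 0.0363) and the transporter Abca9 (1.67 ± 0.38, adjusted p = 0.0441) sat close to the threshold. Abca9 lost its call on leaving out any of 11 of the 12 arrays, Ccl9 on 9 and Bace1 on 8. By list, negative differences were called for 11 of 19 mature B-cell receptors, 5 of 12 MHC class II genes and 4 of 11 homing receptors. They were also called for 3 of 3 light chain genes and 1 of 17 early pre-B genes, beside 167 of all 13370 genes tested. Other lists had them too: 6 of 28 receptor signalling genes, 3 of 9 plasmacytoid dendritic cell markers, 3 of 25 B-lineage factors and 3 of 20 macrophage-type genes. Positive differences were called for 2 macrophage-type genes and 1 B-lineage factor. Irf8 was called lower in LAP marrow (-0.60) but higher without the transgene (0.47), a difference of -1.07 ± 0.14.

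**Figure D5:**
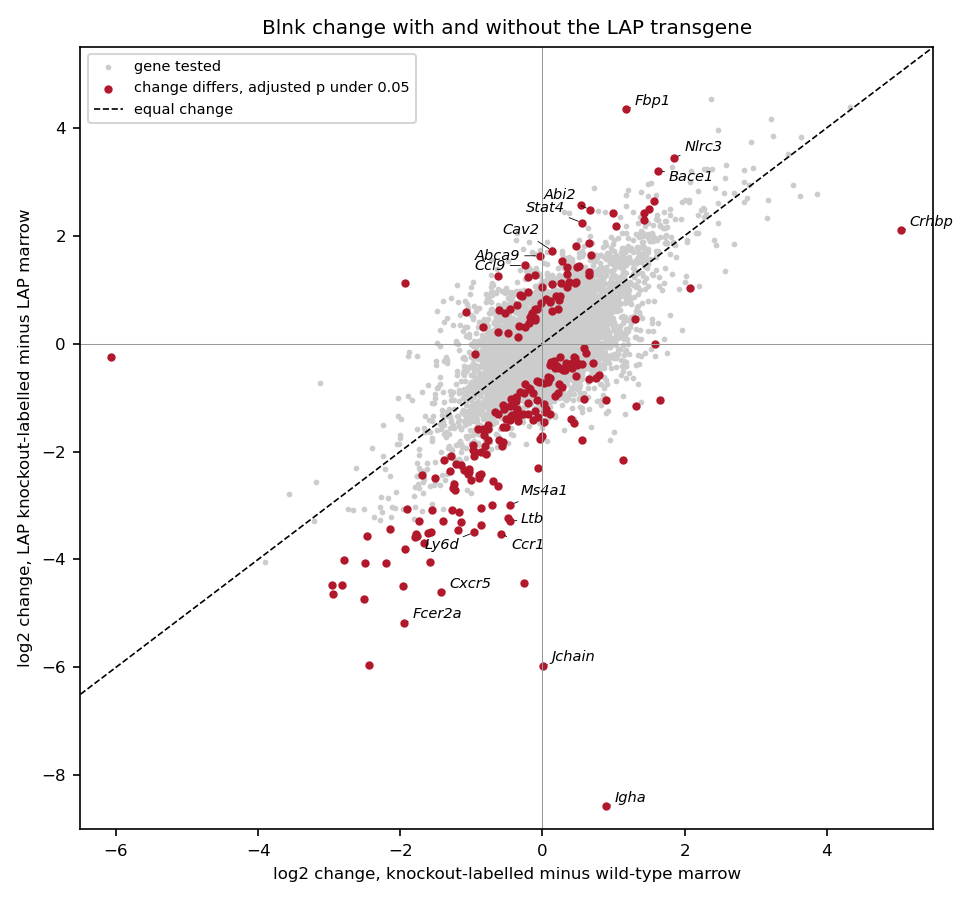
Log2 change with the Blnk knockout label in marrow with the LAP transgene (y axis) against that in marrow without it (x axis), 1 point per gene tested, with genes whose changes differ at an adjusted p under 0.05 in red and the dashed line at equal change. Labelled are the 16 genes with the largest named differences and Igha; most red points lie below the line at negative changes, and Fbp1 (4.35 against 1.18) and Jchain (-5.97 against 0.01) lie farthest from it on each side of the 16.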

How the data were processed

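Each file value is a MAS5 signal, a linear intensity per probe set, which the authors deposited for 21 Affymetrix whole-genome mouse arrays. MAS5 is named per the submitters' processing notes; its version and scaling are not given in the sources used here. Per the labels' protocols, B220-positive cells were sorted and cRNA was made from total RNA. No batch or scan date was used here. Symbols came from the platform annotation: of 45101 probe sets 34945 had 1 symbol, 932 several and 9160 none, beside 64 control probe sets.

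The 12 marrow arrays (4 groups of 3) were taken to log2(signal + 4) and quantile normalized, which removes the overall difference in brightness between groups. Probe sets below the 40th percentile of the array were dropped unless at least 3 of the 12 arrays had them above it, and the brightest probe set stood for each gene. limma 3.58.1 in R 4.3.3 (lmFit, eBayes with trend) gave each contrast, with Benjamini-Hochberg adjustment over 13370 genes, and the interaction of the Blnk and LAP labels. Fold changes are on the log2(signal + 4) scale and understate changes of dim genes. The fit was tested on simulated data.

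Genes named are Blnk and Cebpb; the 15 largest rises and falls among called genes with 1 symbol, at least 2-fold, with groups that do not overlap and a higher group mean of at least 7; the 8 largest positive and negative interaction values under the same limits; up to 5 members of each list by smallest adjusted p, with called members that ran against their list; and every member of the MHC class II, mature B-cell receptor, homing, early pre-B and C/EBP lists. Unnamed transcripts and immunoglobulin segments were left out of the ranked sets. Syk, Btk, Plcg2, Csf1r and Igha were named outside this rule, after their values were seen. The comparison, the members and the lists were chosen with earlier results of these data known. Promoter sequences are RefSeq's. Alternatives covered scaling, pseudocount, filter, probe sets, arrays fitted, array weights, a replicate block and each array left out.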

Additional observations from a re-analysis of the deposited data

Results flagged for a closer look

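The change that goes with the Blnk label differed between marrow with and without the LAP transgene, by the interaction test in limma, for 235 genes at an adjusted p under 0.05. Among them the named positive differences, a change that was higher in LAP marrow, were 3.16 for Fbp1, 1.82 for Abi2, 1.70 for Ccl9, 1.68 for Stat4, 1.67 for Abca9, 1.61 for Nlrc3 and 1.58 each for Bace1 and Cav2, on the log2 scale. The named negative differences were -5.98 for Jchain, -3.22 for Fcer2a, -3.18 for Cxcr5, -2.94 each for Crhbp and Ccr1, -2.84 for Ltb, -2.55 for Ly6d and -2.54 for Ms4a1. For Crhbp both changes were rises, and the smaller one was in LAP marrow. Each of the 16 was listed because the difference itself passed the test.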

How the results depend on the processing

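On the values as deposited, without scaling between arrays, 6029 genes were called in place of 3634, 5451 higher and 578 lower, and 129 differences in place of 235. Testing every probe set called 5630, of which 3094 were higher, from more features tested. Array weights gave 621 differences. Leaving out each array in turn gave 2801 to 3524 called genes, 1442 to 1909 higher, 1359 to 1615 lower, and 138 to 378 differences. The same replicate numbers across groups did not pair the arrays (correlations of deviations 0.047, 0.032 and 0.009), and the fit with a replicate block called 3532 genes and 250 differences.

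As deposited, some changes turned positive: Blnk 0.08, Btk 0.08, Cebpb 0.27, Cebpd 0.15, Cebpg 0.28, Csf1r 0.17, Cxcr3 0.04, Ddit3 0.12, Il7r 0.30, Rag1 0.14 and S1pr4 0.19. Of these only Btk was called with scaling and only Il7r without it. Signs also turned without LAP transgenic array 3 (Cebpd 0.24 and Csf1r 0.08, at their lowest -0.59 and -0.47 without array 2), array 1 (Itga4 -0.02) or array 2 (Itga4 -0.07), and without LAP knockout-labelled array 1 (Il7r 0.01, at its lowest -0.16 without LAP transgenic array 2, and Itga4 -0.05), for genes with no call. Apart from construction as stated, the cause was not tested. Of 150 named genes with a call, 140 kept call and direction as deposited, 143 with the 6 arrays fitted alone, and 144 to 149 on leaving out an array. Folds of probe sets under the filter level in a group depend on the pseudocount.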

Other observations

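A further 2 gene groups were put together after their values were seen, and are described with no test of the group. Among 10 measured genes of ERK feedback and the PEA3 factors 6 were called higher in LAP knockout-labelled marrow, beside 14.5% of all genes, and 1 lower, beside 12.7%, with a median log2 change of 0.99, beside 0.02 over all genes. The Ras pathway inhibitors Spred2 (2.17 ± 0.11) and Spred1 (1.74 ± 0.13), the transcription factor Etv5 (1.88 ± 0.20) and the phosphatase Dusp7 (1.64 ± 0.16) rose, and the phosphatase Dusp5 fell (-1.86 ± 0.25). Without the transgene 5 of the 10 were higher and 2 lower, with a median of 0.63.

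Among 17 measured interleukin receptor subunits 8 were called lower, beside 12.7% of all genes, and 2 higher, beside 14.5%, with a median of -0.61. Both counts follow from members chosen with their values known, so they support nothing. Il2ra (-3.03 ± 0.27) and the interleukin 4 receptor Il4ra (-1.80) fell, and Il7r was at -0.06. Without the transgene 3 of the 17 were lower and 1 higher, with a median of -0.09.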
